A study of Arabidopsis thaliana with 39 samples.

Results

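The tau and phi classes of glutathione transferase were followed through all 36 RNA libraries of the study. Members were taken by gene identifier, as the 28 genes named GSTU1 to GSTU28 and the 13 named GSTF2 to GSTF14, which made 41 of the 32678 genes counted. The libraries came from whole Arabidopsis thaliana seedlings, 5 days old, grown on solid half-strength MS medium, and held poly(A) RNA sequenced on a BGISEQ-500. The genotypes were wild type (WT), glyI2 (a mutant of a glyoxalase I gene), and the lines labelled 35S::GLYI2 35S::GLYII4 #1 and #5, here OE1 and OE5. Each genotype was left untreated (mock), given 100 mM NaCl for 12 h, or exposed over 12 h to methylglyoxal (MG) at 200 µM. Every one of these 12 groups has 3 libraries. The 35S promoter is active in nearly all plant tissues, and OE1 and OE5 are a single line each. The design asks how the genes answer MG and salt, and whether that answer differs where a glyoxalase is missing or, by label, added.

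Glutathione transferases join the tripeptide glutathione to reactive, electron-poor molecules, and the tau and phi classes are the large plant-specific ones. The conjugates are then carried into the vacuole by ABCC transporters. MG, a reactive by-product of glycolysis, combines with glutathione without an enzyme, and glyoxalase I and II turn that adduct into lactate. Many tau and phi genes are known to be induced by xenobiotics, salicylic acid and wounding, through promoter elements bound by TGA factors, while others serve in glucosinolate, camalexin or flavonoid metabolism.

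Library totals ran from 21024878 to 22383131 counts. GLYI2 counts were low in all 9 glyI2 libraries (4.56 to 9.47 CPM, counts scaled to a common library size) against 42.9 to 70.6 CPM in WT. The same gene stood at 20.4 to 34.9 CPM in the libraries labelled OE1 and at 39.4 to 61.1 CPM in those labelled OE5, so it was not raised there as the label says. Against WT in mock it was called lower in OE1 (log2 −1.13 ± 0.22, edgeR adjusted p = 0.0358) and was not called in OE5 (−0.26 ± 0.21). GLYII4 was higher in both, at 25.5 to 37.2 CPM in mock against 9.67 to 12.5 CPM in WT mock. After MG it stood at 234 to 381 CPM in OE1 and 167 to 346 CPM in OE5 (3.27 ± 0.27 and 3.05 ± 0.26 against mock on the log2 scale, ± SE), and it was not called after MG in WT or glyI2. In 7 libraries, all of them replicate 3 of a mock or NaCl group, the clock gene CCA1 stood at 0.176 to 2.02 CPM against 18.8 to 79.0 CPM in the other 29. Those 7 are replicate 3 of WT NaCl and of both mock and NaCl in glyI2, OE1 and OE5. Counts of calls are given below with and without them for each treatment against mock and for the MG response of glyI2 minus WT. Nothing in the labels says that replicates came from separate cultures, and the p-values therefore cover only library-to-library spread, possibly technical. Whole seedlings were used, so fewer cells of a kind and less RNA per cell cannot be told apart.

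A small set of genes held most of the transcript of both classes. Per unit of gene length, GSTU19 was the most abundant in WT mock at 1056 ± 129.6 FPKM (mean ± SD, n = 3), followed by GSTF9 at 882 ± 78.4, GSTU20 at 525 ± 95.7 and GSTF10 at 327 ± 3.74 FPKM. These 4 made up 69.2% of the summed FPKM of the 41 genes, while 18 of the 41 stood under 10 FPKM and 5 under 1 FPKM. GSTU15 and GSTU21 reached at most 2 and 3 counts in any library, and they alone among the 41 failed the expression filter, so 39 were tested.

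GSTU19 (AT1G78380), an abundant enzyme active on model substrates and known from safener responses, showed 1188, 955 and 934 CPM in the WT mock libraries and 1924, 2345 and 1383 CPM after MG. Every MG library was above every mock library, but the difference of 0.88 ± 0.40 on the log2 scale (± SE) did not pass the test (edgeR adjusted p = 0.224). GSTF9 (AT2G30860), linked to glucosinolate metabolism, ran from 933, 857 and 726 CPM in mock to 684, 1230.4 and 587 CPM after MG, with the groups overlapping. GSTU20 (AT1G78370), which binds the jasmonate-conjugating enzyme JAR1, ran from 568, 445 and 376 to 372, 559 and 353 CPM, again overlapping. GSTF10 (AT2G30870) showed 330.1, 328 and 302 CPM in mock, 232, 235 and 308 after NaCl and 420.1, 400.4 and 357 after MG. Of the 4 genes most abundant in WT mock, GSTF10 alone was called between the 2 treatments in all 4 genotypes. It was higher after MG than after NaCl by 0.60 ± 0.15 in WT, 0.88 ± 0.15 in glyI2, 0.59 ± 0.15 in OE1 and 0.53 ± 0.15 in OE5. In WT that call was lost when only the compared groups were fitted (adjusted p = 0.231), as it was in OE1 (0.0627) and OE5 (0.266). The GSTF10 call in OE1 was also lost without NaCl replicate 1 (adjusted p = 0.0549). In OE5 it was lost without the 7 libraries low in CCA1 (0.0573), and without NaCl replicate 2 (0.0846), NaCl replicate 3 (0.0541), MG replicate 1 (0.0666) or MG replicate 2 (0.0544).

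After MG the make-up of the classes changed. The 41 genes together took 0.505% ± 0.0394 of the summed FPKM of all genes in WT mock, 0.559% ± 0.0757 after NaCl and 0.851% ± 0.0473 after MG (mean ± SD, n = 3). The share after MG was 1.02% ± 0.0785 in glyI2, 0.822% ± 0.0931 in OE1 and 0.785% ± 0.0432 in OE5, and in each genotype the MG libraries lay above all mock and NaCl libraries. GSTU22, GSTU24 and GSTU25 grew from 2.22% of the classes' FPKM in WT mock to 19.5% after MG, and the share of the 4 most abundant genes went from 69.2% to 48.2%. GSTU25 at 703 ± 188 FPKM and GSTU24 at 439 ± 115 FPKM then followed GSTU19 at 1717 ± 193 and GSTF9 at 762 ± 173, with GSTF8 at 544 ± 90.8. The ranges of mean ± SD of GSTF9, GSTU25 and GSTF8 overlap, as do those of GSTF8 and GSTU24, and their order is not resolved. No test was made on these sums.

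**Figure D1:**
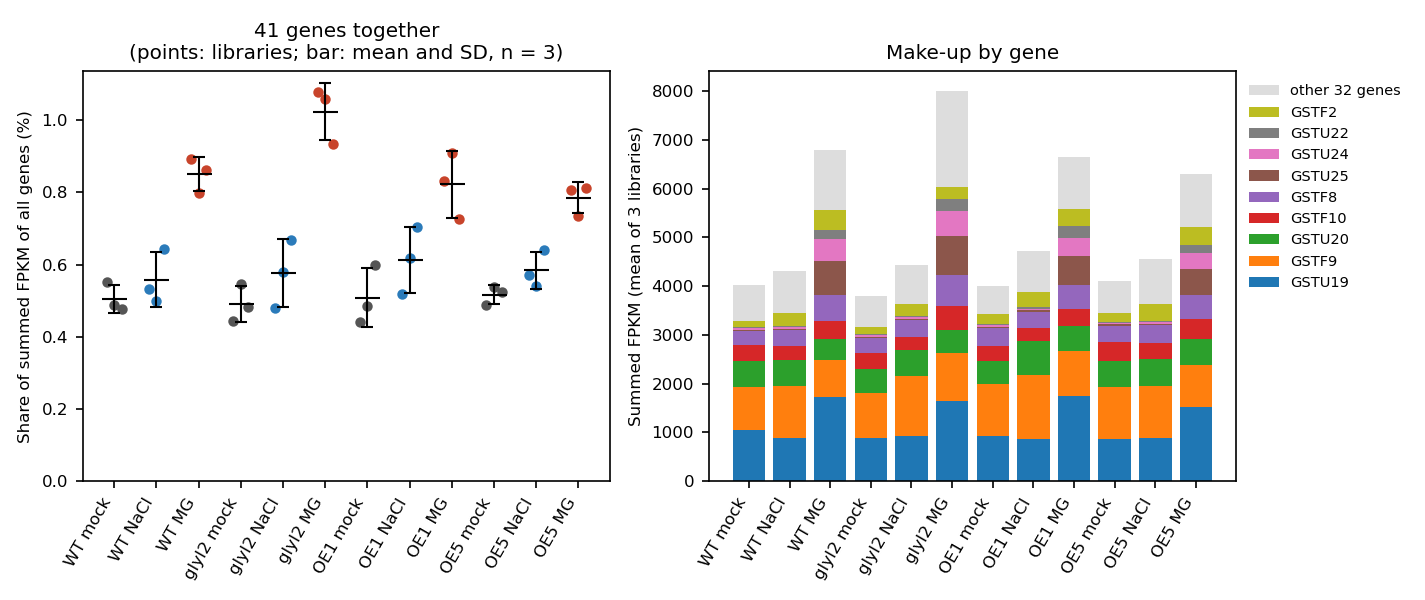
Left, share of the summed FPKM of all genes taken by the 41 tau and phi genes, in percent, one point per library with the mean and SD of 3. Right, summed FPKM of the classes by gene (mean of 3 libraries), with the 9 named genes stacked from the axis and the other 32 in grey. The WT share is 0.505% in mock and 0.851% after MG, and the bands of GSTU25, GSTU24 and GSTU22 are wide only in the MG bars.

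MG moved many more of the genes than NaCl did, and mostly upwards. Against mock in WT, 17 of the 39 tested genes rose after MG and 4 fell (edgeR quasi-likelihood test, adjusted p under 0.05), that is 43.6% higher against 6.42% of all 20748 genes tested and 10.3% lower against 4.26% (10.7% of all genes in either direction). By class, 11 of 26 tau genes rose and 3 fell, and 6 of 13 phi genes rose and 1 fell. The median log2 change of the 39 was 0.64, beside 0.00 for all genes. Leaving out the 7 libraries low in CCA1 gave 19 higher and 4 lower, with all 21 calls shared. None of those 7 is a WT mock or WT MG library, so only the scaling and spread shared with other groups could change. In glyI2, 18 rose and 7 fell after MG, where 14.4% and 14.8% of all genes did (29.2% in all). In OE1 the numbers were 13 and 5 beside 5.85% and 3.94% of all genes (9.79% in all), and in OE5 14 and 5 beside 4.74% and 4.09% (8.82% in all). Without the libraries low in CCA1 the calls in either direction were 24 in glyI2, 19 in OE1 and 21 in OE5. Medians were 0.67, 0.77 and 0.71 in these genotypes, and the OE1 median was the same with GSTU3, which had no mock count there, set at its lower bound. Of the 39, 12 rose in all 4 genotypes (3.53% of all genes did), 4 fell in all 4 (2.67%), and 11 were called in none (68%). Each genotype has mock libraries of its own, and the 4 comparisons share no library.

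**Figure D2:**
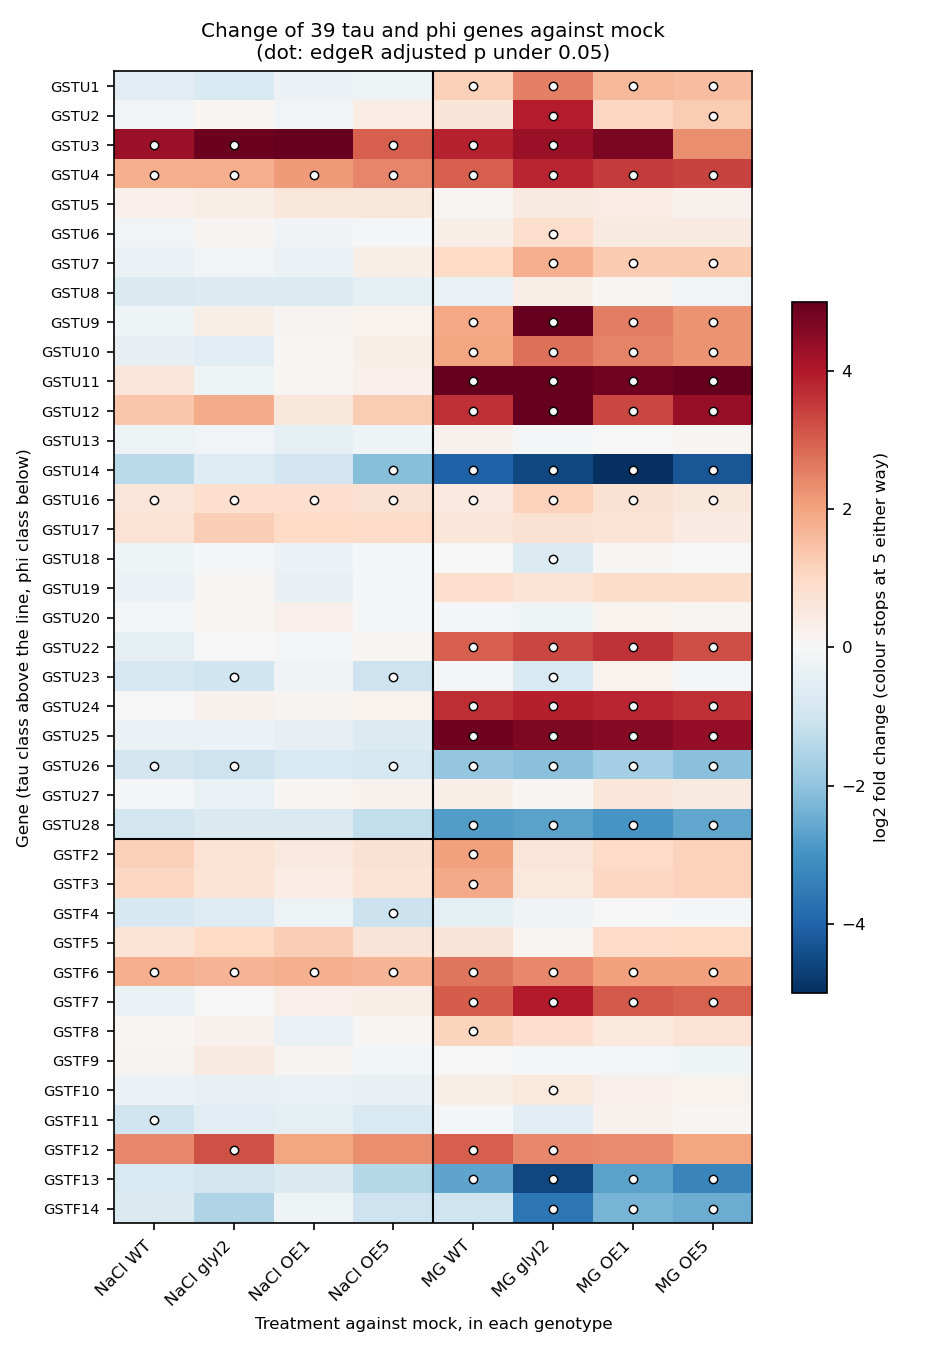
Log2 fold change of the 39 tested genes (rows) after NaCl (left 4 columns) and after MG (right 4 columns) against mock of the same genotype, where a white dot marks edgeR adjusted p under 0.05. Dots fill the MG columns for 12 genes that rose and 4 that fell in all 4 genotypes, against 3 and 0 in the NaCl columns, and the dark GSTU3 cells of OE1 rest on a mock group with no counts.

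GSTU25 (AT1G17180), GSTU24 (AT1G17170) and GSTU22 (AT1G78340) rose strongly and by similar amounts in every genotype. The GSTU24 and GSTU25 enzymes are known for conjugating glutathione to the explosive TNT. GSTU25 stood at 26.3, 21.1 and 18.5 CPM in the WT mock libraries and at 749, 551 and 624 CPM after MG, a log2 change of 4.87 ± 0.36 (adjusted p = 7.84e-11). GSTU24 went from 36.8, 26.4 and 28.5 to 453, 345 and 399 CPM (3.71 ± 0.29, adjusted p = 2.31e-10). GSTU22 went from 24, 19.3 and 25.2 to 203, 207 and 139 CPM (3.0 ± 0.45, adjusted p = 1.48e-05). In each of the 3 genes the lowest MG library was several times the highest mock library.

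GSTU25 rose by 4.66 ± 0.35 in glyI2, 4.53 ± 0.35 in OE1 and 4.39 ± 0.35 in OE5 on the log2 scale. For GSTU24 the changes were 3.90 ± 0.29, 3.81 ± 0.29 and 3.63 ± 0.29, and for GSTU22 3.33 ± 0.46, 3.61 ± 0.47 and 3.21 ± 0.46, in the same order. In OE5 the MG libraries held 603, 249 and 656 CPM of GSTU25 and 365, 174 and 421 CPM of GSTU24, with replicate 2 the low one for both. The difference between the glyI2 and WT responses was −0.21 ± 0.43 for GSTU25, 0.19 ± 0.37 for GSTU24 and 0.32 ± 0.60 for GSTU22, none of which passed the test.

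NaCl left this trio near mock. In the WT NaCl libraries GSTU25 held 19.2, 13.1 and 21.5 CPM, GSTU24 36.5, 29.2 and 26.3 CPM and GSTU22 21.1, 21.6 and 7.22 CPM, all within or below the mock range. None of the 3 was called after NaCl in any genotype. Set directly against NaCl, MG was higher by 5.16 ± 0.36 for GSTU25, 3.70 ± 0.29 for GSTU24 and 3.46 ± 0.46 for GSTU22 in WT, a comparison that does not use the mock libraries. GSTU22 was below its group mates in all 7 libraries low in CCA1, by a median of 1.24 on the log2(CPM + 0.5) scale, but none of its MG calls depended on them.

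**Figure D3:**
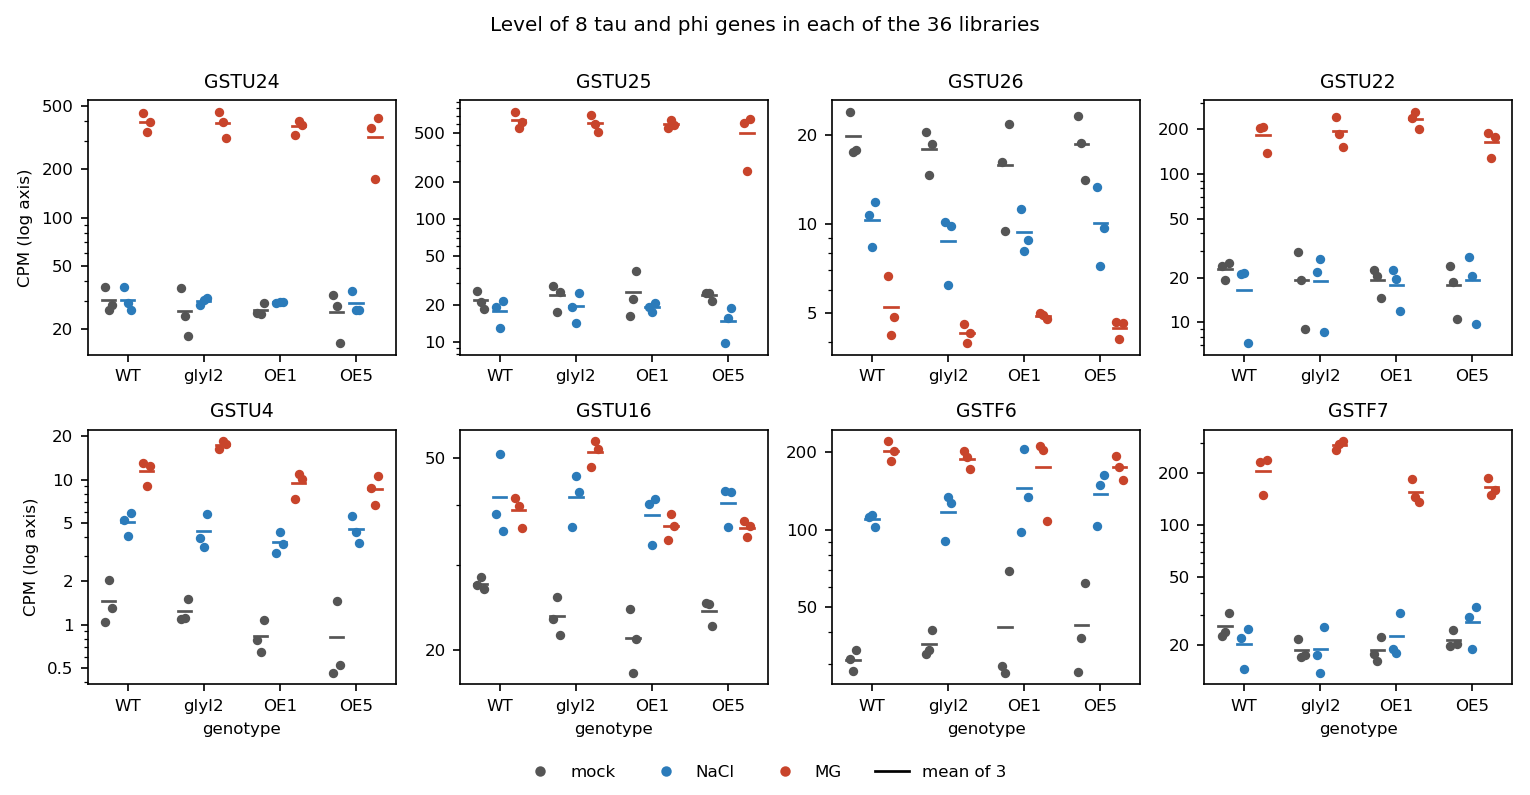
CPM (log axis, scaled separately in each panel) of 8 genes in the 36 libraries, grouped by genotype and coloured by treatment, with a line at the mean of 3. GSTU24, GSTU25 and GSTU22 rise with MG only, their neighbour GSTU26 falls with MG in all 4 genotypes, GSTU4, GSTU16 and GSTF6 rise with both, and GSTF7 rises with MG only.

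GSTU26 (AT1G17190) lies beside GSTU24 and GSTU25 in the reference gene order and went the other way. Its CPM were 24, 17.6 and 17.9 in WT mock, 10.7, 8.38 and 11.9 after NaCl and 6.66, 4.2 and 4.84 after MG, with no overlap between the 3 groups. The MG change was −1.92 ± 0.27 in WT (adjusted p = 4.68e-06), −2.07 ± 0.27 in glyI2, −1.70 ± 0.27 in OE1 and −2.07 ± 0.27 in OE5. Its counts were 83.3 to 96.6% of those of GSTU25 in the WT mock libraries and 0.762 to 0.889% after MG.

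GSTU11 (AT1G69930) and GSTU12 (AT1G69920), also neighbours, stood at 0.366 and 0.313 FPKM in WT mock (means) and rose from there. GSTU11 had 0.366, 0.33 and 0.422 CPM in WT mock and 15.6, 6.92 and 13.8 CPM after MG, a log2 change of 5.00 ± 0.52 (adjusted p = 4.15e-08). GSTU12 went from 0.32, 0.236 and 0.295 to 3.76, 2.53 and 4.5 CPM (3.64 ± 0.55, adjusted p = 1.4e-05). The groups lay far apart in both genes. In glyI2 the same genes reached 37.8, 25.4 and 26.8 and 11.6, 9.88 and 7.25 CPM after MG, all above the WT MG libraries. The difference in response to WT was 1.48 ± 0.74 for GSTU11 and 2.30 ± 0.83 for GSTU12, which did not pass the test over all genes (adjusted p = 0.308 and 0.129), although GSTU12 did when only the compared groups were fitted (2.39, adjusted p = 0.032).

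A further 5 tau genes rose after MG in all 4 genotypes. GSTU9 rose by 1.93 ± 0.20, GSTU10 by 1.96 ± 0.34 and GSTU1 by 1.19 ± 0.29 in WT. GSTU4 (AT2G29460) stood at 1.05, 2.03 and 1.31 CPM in WT mock, 5.27, 4.11 and 5.92 after NaCl and 13.1, 9.08 and 12.5 after MG, so the 3 groups formed steps that did not overlap (1.80 ± 0.32 after NaCl, 2.98 ± 0.32 after MG). GSTU16 (AT1G59700) stood at 27.3, 28.3 and 26.8 CPM in WT mock, 38.4, 51.1 and 35.3 after NaCl and 41.3, 39.9 and 35.8 after MG. Both treatments were above mock in every library and overlapped each other (0.60 ± 0.14 and 0.51 ± 0.14). GSTU16 had the smallest spread between replicates of the 39 genes, a biological coefficient of variation of 13.0% against a median of 24.7%. Its WT calls were still lost in a fit of the compared groups only (adjusted p = 0.104 after NaCl and 0.067 after MG). They were also lost without NaCl replicate 2 for NaCl (0.0826), and without mock replicate 1 (0.0537), mock replicate 3 (0.0599) or MG replicate 1 (0.0677) for MG. In OE5 the GSTU16 call after MG was lost in the compared groups only (0.0946).

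GSTU3 (AT2G29470) was nearly silent in mock. Its counts were 0, 0 and 2 in WT mock, 19, 14 and 17 after NaCl and 8, 4 and 20 after MG. Both treatments lay above mock in every library (adjusted p = 0.00254 and 0.00428), with ratios of 23.0 (95% counting interval 6.05 to 195) and 17.6 (4.48 to 151). In glyI2 mock the counts were 1, 0 and 0, and GSTU3 was called after both treatments there too. The intervals are exact and cover counting error only.

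GSTU7 rose after MG in glyI2 (1.81 ± 0.37), OE1 (1.32 ± 0.37) and OE5 (1.31 ± 0.37). In WT its libraries ran from 75.9, 69.6 and 80.1 to 165, 145 and 141 CPM without overlap, but the change of 1.00 ± 0.36 missed the threshold (adjusted p = 0.0847). GSTU7 was below its group mates in all 7 libraries low in CCA1. In OE1 the GSTU7 call was lost without mock replicate 3 (adjusted p = 0.123), MG replicate 2 (0.0511) or MG replicate 3 (0.0586), and in OE5 without mock replicate 3 (0.177), MG replicate 1 (0.0516) or MG replicate 3 (0.116). GSTU6 rose in glyI2 alone (0.89 ± 0.28), a call lost without glyI2 mock replicate 3 (0.0892) or MG replicate 1 (0.0706). It overlaps AT2G29430, which rose by 4.08 ± 0.57 there, and reads of the pair cannot be told apart here because strand use in counting is not given.

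Among the phi genes, GSTF6 and GSTF7 rose together after MG and parted after NaCl. GSTF6 (AT1G02930) takes part in the synthesis of the defence compound camalexin, and GSTF7 (AT1G02920) is its near copy in the same gene cluster. GSTF6 stood at 31.4, 28.2 and 34.2 CPM in WT mock, 112, 114 and 103 after NaCl and 220.5, 185 and 202 after MG, each group clear of the next. GSTF7 stood at 22.6, 23.7 and 30.8 CPM in mock, 21.8, 14.3 and 24.8 after NaCl and 233, 150.4 and 239 after MG, where the first pair of groups overlapped. The MG changes were 2.69 ± 0.32 for GSTF6 (adjusted p = 4.02e-07) and 3.01 ± 0.26 for GSTF7 (adjusted p = 1.99e-09), and the NaCl changes 1.81 ± 0.31 (adjusted p = 0.000406) and −0.34 ± 0.25 (adjusted p = 0.522).

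The same split was seen in the other genotypes. GSTF6 was called after NaCl in all 4, with changes of 1.71 ± 0.31 in glyI2, 1.79 ± 0.31 in OE1 and 1.70 ± 0.31 in OE5, and GSTF7 in none. Directly against NaCl, GSTF7 was higher after MG in all 4 genotypes, by 3.35 ± 0.27 in WT. GSTF6 was called in none of these direct comparisons (0.88 ± 0.31 in WT, adjusted p = 0.0582), although in WT it passed with the replicate number as a block (0.89, adjusted p = 0.0432), with DESeq2 (0.033) and in the compared groups only (0.0432). In OE5 the NaCl call of GSTF6 was lost in the compared groups only (0.0525). GSTF7 counts were 72.2 to 90.0% of GSTF6 counts in the WT mock libraries, 12.6 to 24.2% after NaCl and 81.4 to 118% after MG. The sources used here do not say how reads shared by these copies were assigned, and their separate levels are uncertain.

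GSTF2 (AT4G02520), a phi protein known to bind camalexin and other small indoles, rose in WT from 108, 125 and 80.4 to 425, 508 and 369.8 CPM (2.06 ± 0.45, adjusted p = 0.00171). GSTF2 changed by 0.60 ± 0.44 in glyI2, 0.96 ± 0.44 in OE1 and 1.17 ± 0.44 in OE5, none called with all libraries. Without the libraries low in CCA1 GSTF2 was called in all 4 genotypes, at 1.02 in glyI2 (adjusted p = 0.0484), 1.28 in OE1 (0.04) and 1.56 in OE5 (0.0109), and the replicate block gave 1.18 in OE5 (0.0446). The difference between glyI2 and WT was −1.46 ± 0.62 and did not pass the test (adjusted p = 0.211). GSTF2 was above its group mates in all 7 libraries low in CCA1, by a median of 0.96 on the log2(CPM + 0.5) scale. GSTF3 followed GSTF2 throughout, and its counts were 3.05 to 4.53% of GSTF2 counts in all 36 libraries, so the GSTF3 values may not be independent of GSTF2.

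GSTF8 (AT2G47730), whose promoter is a classic reporter for salicylic acid and oxidative signals, rose in WT from 499, 538 and 435 to 827, 1459 and 863 CPM (1.10 ± 0.33, adjusted p = 0.0301). The MG replicate 2 library was the highest, and the GSTF8 call was lost without it (adjusted p = 0.246) or without mock replicate 1 (0.0888), 2 (0.0631) or 3 (0.129). It was not called in the other genotypes.

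GSTF12 (AT5G17220), also known as TRANSPARENT TESTA 19, is needed to bring anthocyanins and proanthocyanidins to the vacuole. Its CPM were 4.8, 9.72 and 3.12 in WT mock, 21.1, 52.8 and 20.6 after NaCl and 11.7, 117 and 9.68 after MG. GSTF12 was called after MG in WT (2.97 ± 0.89, adjusted p = 0.0266) and glyI2 (2.39 ± 0.88), and after NaCl in glyI2 (3.19 ± 0.90). It was the most variable of the 39, with a biological coefficient of variation of 67.0%, and replicate 2 was the highest library in 12 of 12 groups. The WT call was lost without MG replicate 2 (adjusted p = 0.834), mock replicate 1 (0.116) or mock replicate 3 (0.14), and in the compared groups only (0.125). Without the libraries low in CCA1 the glyI2 calls of GSTF12 were lost, at adjusted p = 0.135 after MG and 0.0853 after NaCl. The MG call there was also lost without mock replicate 1 (0.129), mock replicate 3 (0.14) or MG replicate 2 (0.18), and the NaCl call without mock replicate 1 (0.103), mock replicate 3 (0.119) or NaCl replicate 2 (0.283). After NaCl in WT, GSTF12 was not called (2.42 ± 0.87, adjusted p = 0.0964), but it was with DESeq2 (0.0476) and in the compared groups only (0.0216). GSTU17 (AT1G10370), known as ERD9 from drought induction, showed the same order, with replicate 2 the highest in 11 of 12 groups, and was called in no comparison without the replicate block.

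**Figure D4:**
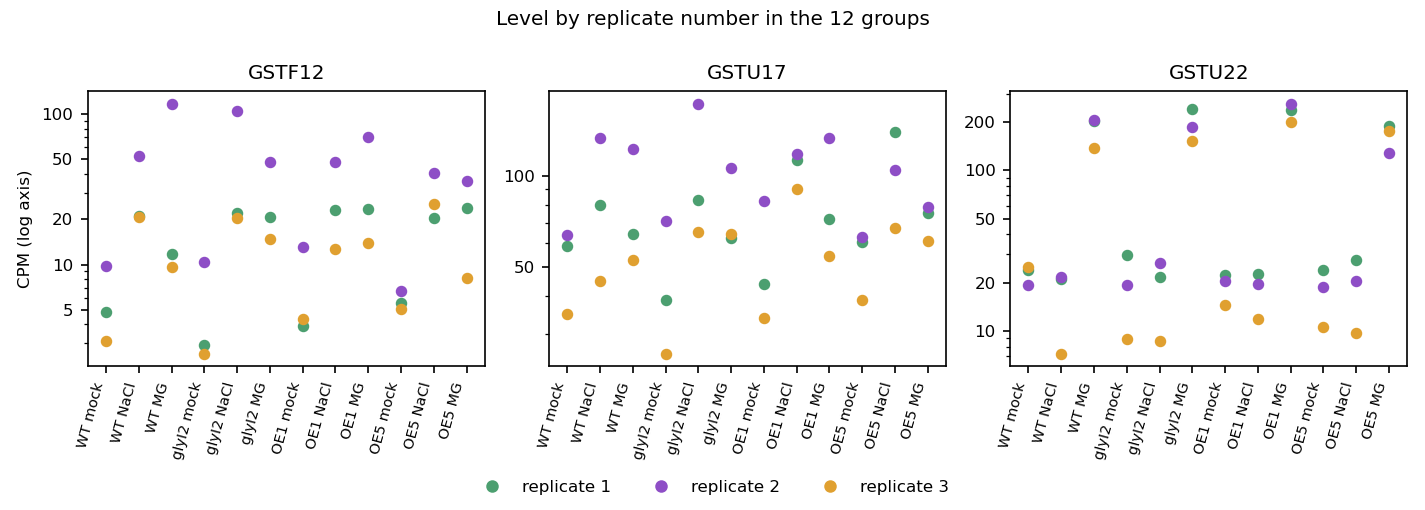
CPM (log axis, one scale per panel) of GSTF12, GSTU17 and GSTU22 in the 12 groups, coloured by replicate number. Replicate 2 is the highest in 12 of 12 groups for GSTF12 and 11 of 12 for GSTU17, and replicate 3 of GSTU22 is low in the 7 libraries low in CCA1.

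Beside GSTU26, the genes that fell after MG in all 4 genotypes were GSTU14 (AT1G27140), GSTU28 (AT1G53680) and GSTF13 (AT3G62760), at mean levels of 3.17, 4.43 and 2.26 FPKM in WT mock. GSTU14 counts were 55, 60 and 36 in WT mock and 2, 3 and 3 after MG, and the groups did not overlap (−4.05 ± 0.58, adjusted p = 6.36e-06). It fell in glyI2 (−4.55 ± 0.59) and OE5 (−4.27 ± 0.58) as well. In OE1, where MG left 2, 0 and 1 counts, mock was 44.7 times as high (95% counting interval 15.0 to 219). GSTU28 fell from 2.74 to 3.11 to 0.285 to 0.494 CPM in WT (−2.80 ± 0.48, adjusted p = 8.61e-05), and it fell by similar amounts in the other 3 genotypes (log2 −2.69, −2.94 and −2.61). The OE5 call of GSTU28 was lost in the compared groups only (adjusted p = 0.0671).

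GSTF13 fell in all 4 genotypes, by −2.62 ± 0.71 in WT and −4.53 ± 0.82 in glyI2, and its WT call was lost without MG replicate 3 (adjusted p = 0.0766). GSTF14 fell in glyI2 (−3.59 ± 0.57), OE1 (−2.33 ± 0.57) and OE5 (−2.48 ± 0.55). In WT, where mock was already at 0.778, 1.37 and 0.928 CPM, its change of −1.01 ± 0.54 was not called. The OE1 call of GSTF14 was lost without mock replicate 3 or the libraries low in CCA1 (adjusted p = 0.171 and 0.0759), and the OE5 call without mock replicate 3 (0.0511). GSTU18 and GSTU23 fell in glyI2 alone (by 0.67 and 0.75 on the log2 scale), and both calls were lost in the compared groups only (adjusted p = 0.0788 and 0.124). Both were lost as well without glyI2 mock replicate 1 (0.0959 and 0.0532) or 2 (0.0547 and 0.125) and without MG replicate 1 (0.116 and 0.0544) or 2 (0.0985 and 0.251). The GSTU23 call was lost further without mock replicate 3 (0.0777), MG replicate 3 (0.0643), the libraries low in CCA1 (0.0631) or the expression filter (0.0606). GSTU18 overlaps GSTU17, which changed by 0.78 ± 0.44 after MG in glyI2 without a call, and reads of this pair cannot be told apart here.

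Markers of root tissue moved beside these falls. The root hair genes COBL9 and EXPA7 fell after MG in WT by 5.65 and 5.33 on the log2 scale and the root aquaporin gene TIP2;3 by 3.67, and all 3 fell in every genotype. The summed level of the 4 root markers, most of it from the ER body gene PYK10, was 6396 to 8306 CPM in WT mock, 3572 to 4326 after NaCl and 3703 to 4526 after MG, and none of the 4 was called after NaCl. In glyI2 the sum was 5303 to 7692 CPM in mock and 1556 to 2689 CPM after MG, and there PYK10 fell too (−1.54 ± 0.33). None of the 3 shoot markers was called. Their libraries overlapped except for RBCS1A, lower after MG than in mock in glyI2 and higher after MG than after NaCl in OE1, and LHCB2.2, lower after NaCl in WT than in mock or after MG. The part of root or root hair RNA in the falls of the tau and phi genes was not tested.

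The 11 tested genes with no MG call in any genotype included 3 of the 4 most abundant. They were GSTU5, GSTU8, GSTU13, GSTU17, GSTU19, GSTU20, GSTU27, GSTF4, GSTF5, GSTF9 and GSTF11. GSTU13, which has a role in indole glucosinolate metabolism in immunity, changed by 0.20 ± 0.28 in WT. GSTU20 changed by −0.11 ± 0.25, GSTF9 by −0.01 ± 0.23 and GSTU5 by 0.09 ± 0.19, each smaller than its standard error. With the replicate block, MG calls were added in glyI2 for GSTU5 (0.45, adjusted p = 0.0407) and GSTU17 (0.86, adjusted p = 0.00511). In OE5 the block added GSTU19 (1.04, adjusted p = 0.0368), GSTF3 and GSTF12.

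NaCl changed few of the genes. In WT 4 of 39 rose (10.3%, against 4.43% of all genes) and 2 fell (5.13%, against 2.69%, with 7.12% of all genes in either direction), with a median log2 change of −0.20 beside 0.008 for all genes. The numbers were 5 and 2 in glyI2 beside 4.45% and 2.59% of all genes (7.05% in all), 3 and 0 in OE1 beside 2.98% and 2.35% (5.33%), and 4 and 4 in OE5 beside 3.24% and 2.23% (5.48%). With the libraries low in CCA1 left out, calls in either direction numbered 7, 6, 3 and 5 in WT, glyI2, OE1 and OE5. The genes that rose in all 4 genotypes were GSTU4, GSTU16 and GSTF6, each of which rose in all 4 after MG as well, and none fell in all 4. Of all genes 1.78% rose and 1.13% fell after NaCl in all 4, and 88.8% were called in none, as were 29 of the 39. The comparisons of NaCl and MG with mock use the same mock libraries, so this overlap is not independent. GSTU4 and GSTF6 kept their NaCl calls in WT and OE1 under every alternative tried. In a fit of the compared groups only, GSTU4 lost its call in glyI2 (adjusted p = 0.0532) and OE5 (0.0525), GSTF6 in OE5 (0.0525), and GSTU16 in glyI2 (0.117), OE1 (0.072) and OE5 (0.13) as well as WT.

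Those that fell after NaCl in WT were GSTU26 (−0.94 ± 0.26, adjusted p = 0.0235) and GSTF11 (−0.99 ± 0.28, adjusted p = 0.0243). GSTF11, like GSTF9 and GSTF10 associated with glucosinolate synthesis, stood at 8.88, 10.1 and 8.74 CPM in mock and 3.37, 5.27 and 5.31 CPM after NaCl, with no overlap. The GSTF11 call was lost without any 1 of the mock libraries (adjusted p = 0.0579, 0.0834 and 0.0575 for replicates 1, 2 and 3) and without NaCl replicate 1 (0.13). GSTU26 lost its NaCl call without mock replicate 1 (adjusted p = 0.136), NaCl replicate 1 (0.0573) or NaCl replicate 2 (0.112). Outside WT, GSTU26 and GSTU23 fell after NaCl in glyI2 and OE5, and GSTF4 and GSTU14 in OE5. All of these except GSTU14 were lost in the compared groups only (adjusted p = 0.175 and 0.243 for GSTU26 and GSTU23 in glyI2, and 0.271, 0.306 and 0.356 for GSTU26, GSTU23 and GSTF4 in OE5). Without the libraries low in CCA1, GSTU26 (0.0656), GSTF4 (0.123) and GSTU3 (0.11) lost their OE5 calls. The replicate block raised the OE5 count from 8 to 12, adding GSTU5 (0.59, adjusted p = 0.0271), GSTU17 (0.95, 0.0093), GSTF11 (−0.82, 0.0315) and GSTF12 (2.26, 0.000765).

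Set directly against NaCl, MG was higher for 13 and lower for 3 of the 39 genes in WT, beside 6.11% and 5.6% of all genes (11.7% in all). In glyI2 the counts were 15 and 5 (15% and 16.3% of all genes, 31.3% in all), in OE1 15 and 4 (6.95% and 5.68%, 12.6%), and in OE5 13 and 2 (5.18% and 5.14%, 10.3%). GSTU1, GSTU4, GSTU9, GSTU10, GSTU11, GSTU12, GSTU22, GSTU24, GSTU25, GSTF7 and GSTF10 were higher after MG in all 4 genotypes (11 of 39, beside 3.07% of all genes), and GSTU14 and GSTU26 were lower in all 4 (2 of 39, beside 3.21%). Without the libraries low in CCA1, GSTU26 lost this call in WT (adjusted p = 0.0525) and GSTU4 (0.118) and GSTU14 (0.0705) lost it in OE5. In WT the replicate block added GSTU19 (1.18, adjusted p = 0.013) and GSTF8 (1.00, 0.0461) to GSTF6.

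Without treatment none of the 39 genes was called in glyI2, OE1 or OE5 against WT mock, where 0.0434%, 0.053% and 0.0386% of all genes were (0.0241%, 0.0386% and 0.0289% higher, and 0.0193%, 0.0145% and 0.00964% lower). At an unadjusted p under 0.05 there were 1, 9 and 4, beside 1.73%, 9.19% and 3.47% of all genes, and DESeq2 called 0 in each. Libraries did not overlap, without a call, for 1 gene higher and 5 lower in glyI2 (3.97% and 1.85% of all genes), 4 and 9 in OE1 (10.6% and 11.1%), and 2 and 5 in OE5 (4.04% and 3.92%). The mock groups of glyI2, OE1 and OE5 each include a replicate 3 library low in CCA1, and the WT mock group includes none. No difference in NaCl response to WT was called in any line (0 of 39 and 0% of all genes; 0 of 39 at an unadjusted p under 0.05, beside 0.424%, 1.11% and 0.781% of all genes in glyI2, OE1 and OE5; DESeq2 0), nor any difference in MG response for OE1 or OE5 (0.00482% of all genes in each; 1 and 0 of 39 at an unadjusted p under 0.05, beside 0.998% and 0.593% of all genes; DESeq2 0 and 0).

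The exception was MG in glyI2, where GSTU9 and GSTU2 rose far more than in WT. These were 2 of 39 genes (5.13%), beside 2.47% of all genes with a higher change in glyI2 (3.97% in either direction), and none of the 39 had a called lower one (1.5% of all genes). GSTU9 (AT5G62480) stood at 6.36, 7.03 and 9.07 CPM in WT mock and 6.46, 7.82 and 5.15 CPM in glyI2 mock. After MG it stood at 36.2, 22.2 and 27.3 CPM in WT and 248, 213 and 175 CPM in glyI2, and every glyI2 library held several times the level of every WT library. The log2 change was 1.93 ± 0.20 in WT and 5.03 ± 0.23 in glyI2, with a difference of 3.10 ± 0.29 (adjusted p = 9.95e-08). In OE1 and OE5 the changes were 2.56 ± 0.21 and 2.25 ± 0.21, and their differences from WT were not called.

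GSTU2 (AT2G29480), in the tandem array with GSTU1, was weakly expressed, at 1.05, 1.09 and 1.56 CPM in WT mock and 1.15, 1.21 and 1.67 in glyI2 mock. MG left it at 2, 1.3 and 2.46 CPM in WT, where the change of 0.64 ± 0.33 was not called, and brought it to 22.4, 19.3 and 19.6 CPM in glyI2 (3.92 ± 0.35). The difference between the responses was 3.27 ± 0.47 (adjusted p = 5.6e-05). GSTU2 counts were 4.09 to 5.54% of GSTU1 counts in the WT MG libraries and 25.3 to 28.0% in the glyI2 MG libraries, so the share was not fixed. In OE5 the MG change of GSTU2 was 1.26 ± 0.36, a call lost in the compared groups only (adjusted p = 0.111) and without mock replicate 1 (0.107), mock replicate 3 (0.0626), MG replicate 2 (0.0581) or MG replicate 3 (0.138). GSTU2 overlaps another locus in the reference gene table that has no row in the count files. Neither GSTU2 nor GSTU9 lost its difference under any alternative tried.

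**Figure D5:**
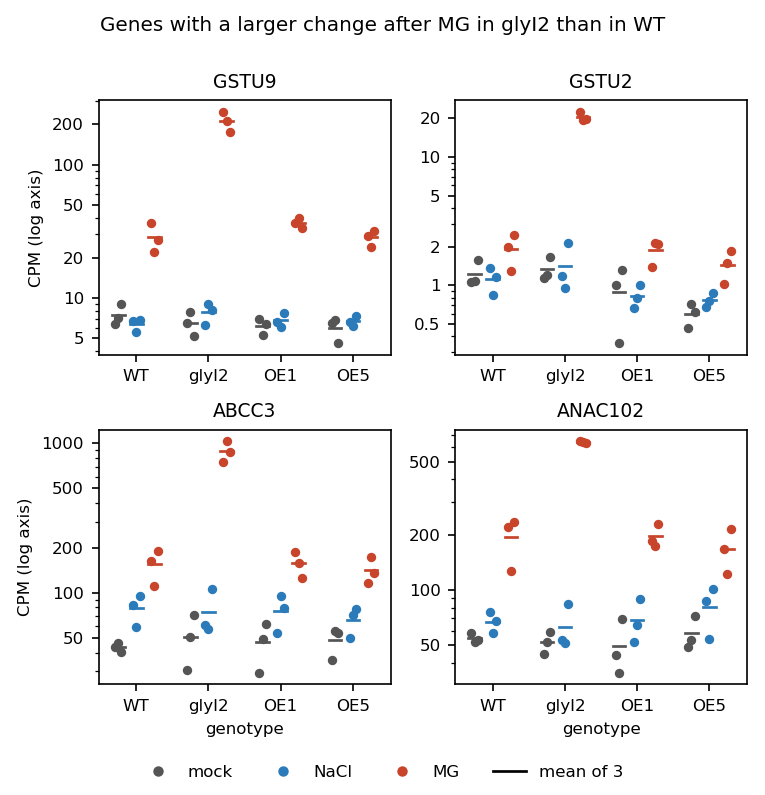
CPM (log axis, one scale per panel) of GSTU9, GSTU2, the vacuolar transporter gene ABCC3 and the NAC factor gene ANAC102 in the 36 libraries, by genotype and treatment, with a line at the mean of 3. The 3 glyI2 MG libraries lie above all others in each panel, with GSTU9 at 175 to 248 CPM against 22.2 to 36.2 CPM in WT MG.

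For the difference in MG response 10 of the 39 had an unadjusted p under 0.05, beside 17% of all genes. Of those not called, GSTU1 differed by 1.33 ± 0.40 (adjusted p = 0.0575), GSTU16 by 0.63 ± 0.20 (0.071) and GSTF7 by 0.96 ± 0.35 (0.128), all larger in glyI2. GSTF14 differed by −2.59 ± 0.79 (0.0594), the other way. Tau and phi genes leaned apart here, with medians of 0.34 and −0.42 for the difference, beside −0.09 for all genes, and no test was made of that contrast. DESeq2 called 5, adding GSTU1, GSTU16 and GSTF14, and leaving out the libraries low in CCA1 gave 4, adding GSTU1 and GSTF14.

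By their calls, neighbouring genes often differed after MG, although no difference between neighbours was tested. In the gene order of assembly TAIR10.1, 27 of the 41 genes lie in 8 groups with at most 2 other protein-coding genes between members, and 14 stand alone. Of the 41, 12 overlap another gene there (GSTU2, GSTU6, GSTU7, GSTU10, GSTU17, GSTU18, GSTF2, GSTF4, GSTF8, GSTF10, GSTF11 and GSTF12). Strand use in counting is not given, so reads of such overlaps cannot be told apart. Only the GSTU11 and GSTU12 pair had all its tested members called in the same direction after MG in all 4 genotypes. Within larger groups, GSTU24 and GSTU25 both rose in all 4, as did GSTF6 and GSTF7. In the run from GSTU19 to GSTU23, GSTU22 alone rose in all 4, while GSTU19 and GSTU20 were called in none. A gene not called may still have changed, as with GSTU19 in WT, where every MG library was above every mock library. In the run from GSTU1 to GSTU7, GSTU1 and GSTU4 rose in all 4 and GSTU5 in none. GSTU14 fell in all 4 and its neighbour GSTU13 was not called.

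Genes that act with these enzymes were read from lists of other glutathione transferases, glutathione metabolism, conjugate transport and regulators. These lists were chosen with earlier results of these data known, so their shares beside all genes are no test of enrichment. Of the other transferase classes, 2 of 11 tested rose after MG in WT and none fell (median 0.19), where 6.42% of all genes rose, namely the lambda-class GSTL1 (3.26 ± 0.64) and the dehydroascorbate reductase gene DHAR2 (1.87 ± 0.38). DHAR1 rose instead after NaCl, by 1.25 ± 0.29 in WT, and in all 4 genotypes. Of 8 tested genes of glutathione synthesis and turnover none was called after either treatment in WT (median 0.24 after MG), and GSH1, which makes the first committed step, changed by −0.03 ± 0.14. In glyI2 the glutathione reductase gene GR1 (0.76 ± 0.26) and the gamma-glutamyl transferase gene GGT1 (1.79 ± 0.44) rose after MG, 2 of 8 beside 14.4% of all genes, and GGT4 after NaCl (0.65 ± 0.19). The GR1 call was lost without glyI2 mock replicate 1 (adjusted p = 0.0814), mock replicate 3 (0.0804) or MG replicate 2 (0.0838). The GGT4 call was lost in the compared groups only (adjusted p = 0.286) and without mock replicate 2 (0.123), mock replicate 3 (0.189), NaCl replicate 1 (0.0799) or NaCl replicate 2 (0.187). Of the 4 ABCC transporters on the conjugate transport list 2 rose after MG in WT, namely ABCC3 (1.84 ± 0.31) and ABCC2 (0.97 ± 0.27), and none fell, beside 6.42% of all genes that rose.

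The regulator list, too, was chosen with earlier results of these data known. Of the 7 regulators, 4 rose after MG in WT and none fell (median 0.73), beside the same 6.42% of all genes. They were SCL14, a GRAS protein that works with TGA factors in xenobiotic responses (0.73 ± 0.11), and the NAC factors ANAC102 (1.83 ± 0.28), ANAC032 (1.77 ± 0.26) and ATAF1 (1.13 ± 0.28). ATAF1 rose after NaCl in WT too (1.15 ± 0.28). The TGA genes TGA2, TGA5 and TGA6 were not called in WT. In glyI2 TGA6 rose after MG against mock (0.70 ± 0.21), and all 3 were higher after MG than after NaCl (0.80 ± 0.21, 0.79 ± 0.28 and 0.63 ± 0.21, in that order). The TGA6 and TGA5 calls there were lost in the compared groups only (adjusted p = 0.0659 for TGA6 against mock, 0.0979 and 0.0785 for TGA6 and TGA5 against NaCl), and TGA6 against NaCl without the libraries low in CCA1 (0.0719). Against mock, TGA6 also lost its call without glyI2 mock replicate 3 (0.0821) or MG replicate 3 (0.0531). Against NaCl, TGA6 lost it without NaCl replicate 1 (0.0641), NaCl replicate 3 (0.085), MG replicate 2 (0.0684) or MG replicate 3 (0.0913), and TGA5 without NaCl replicate 1 (0.131), NaCl replicate 2 (0.157) or MG replicate 2 (0.0708). ABCC3 stood at 164, 112 and 191 CPM in WT MG and 755, 1029 and 873 CPM in glyI2 MG, and ANAC102 at 219, 127 and 234 and 643, 636 and 631 CPM. Both responses were larger in glyI2, by 2.29 ± 0.43 for ABCC3 (adjusted p = 0.00178) and 1.79 ± 0.39 for ANAC102 (adjusted p = 0.00556).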

How the data were processed

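The submitters' processing notes name HISAT2 2.0.4, HTSeq and TAIR10, without their roles. Each library came with deposited counts per gene (whole numbers, not normalized) and the authors' FPKM per gene. The strand setting of the counting is not given. Depth was 21024878 to 22383131 counts per library. Counts were tested with edgeR 4.0.16 (R 4.3.3, quasi-likelihood, TMM scaling, default filter, all 36 libraries) on 20748 genes, with Benjamini-Hochberg adjustment over all of them and a threshold of 0.05. Standard errors came from the F statistic. Every adjusted p is edgeR's unless DESeq2 (1.42.0) is named. FPKM was used only for levels. Figures used Python 3.11.15. The fit was checked on simulated counts.

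The 41 genes and the lists were chosen with earlier results of these data known. Genes named in full were those called in WT (largest 8 per treatment), those with a called difference in response, and the 4 with the highest FPKM. Replicate numbers paired the libraries, by correlated deviations over 0.1 in all 3 pairs, in 4 of 15 comparisons (MG against mock in glyI2 and OE5, NaCl against mock in OE5, MG against NaCl in WT). Gene order came from a table of assembly TAIR10.1. Promoter and protein sequences were not used here, and 3 chromatin samples were not analysed here.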

Additional observations from a re-analysis of the deposited data

Results flagged for a closer look

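Among the tau and phi genes and the partner lists, the change after MG differed between glyI2 and WT for 4 genes. That difference itself was tested over all genes with edgeR. Many genes outside these lists were called too, and their share is given above beside GSTU9 and GSTU2. GSTU9 changed by 3.10 ± 0.29 more in glyI2 (adjusted p = 9.95e-08) and GSTU2 by 3.27 ± 0.47 more (adjusted p = 5.6e-05), and in both genes the 3 glyI2 libraries lay above the 3 WT libraries after MG. ABCC3, a transporter of glutathione conjugates, changed by 2.29 ± 0.43 more (adjusted p = 0.00178), and ANAC102 by 1.79 ± 0.39 more (adjusted p = 0.00556), again in 3 of 3 libraries.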

How the results depend on the processing

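Every count of called genes was recomputed with RLE scaling, without the expression filter, with DESeq2, with only the compared groups, with the replicate number as a block and without each library in turn, and, chosen after seeing the data, without the 7 libraries low in CCA1. No direction of a called change reversed. Counts after MG against mock and MG against NaCl stayed within 1.5 times in all of these. After NaCl, DESeq2 called 10 instead of 6 in WT and 5 instead of 3 in OE1. A fit of the compared groups only called 1 instead of 7 in glyI2 and 2 instead of 8 in OE5, and dropping the libraries low in CCA1 called 5 in OE5. For the MG response of glyI2 minus WT the 2 calls became 5 with DESeq2 and 4 when the libraries low in CCA1 were dropped. The cause was not tested. Shares of all genes called under each setting are not given here, so these shifts are not read as particular to the tau and phi genes. Leaving out each library gave 4 to 7 calls after NaCl in WT, 4 to 9 in glyI2 and 5 to 7 in OE5, and 18 to 20 after MG in WT.

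With the replicate block, NaCl in OE1 had 9 calls instead of 3 and the MG response of glyI2 minus WT 6 instead of 2. The shares of all genes called with the block are not given here either. Where the numbers paired the libraries, the block gave 27 for 25 (MG in glyI2), 12 for 8 (NaCl in OE5), 23 for 19 (MG in OE5) and 19 for 16 (MG against NaCl in WT). It took no call away in those 4, and 31 of 36 libraries correlated best with their own number. Values of GSTU3, GSTU14, GSTU23, GSTU28, GSTF4, GSTF5, GSTF13 and GSTF14, at most 4.18 CPM and 108 counts in any library, rest on few counts.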

Other observations

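Among the 39 tested genes, 5 were above their group mates in all 7 libraries low in CCA1 (GSTU2, GSTU14, GSTF2, GSTF3 and GSTF13) and 8 were below in all 7 (GSTU7, GSTU8, GSTU13, GSTU17, GSTU19, GSTU22, GSTU28 and GSTF12). The share of all genes that did so was not computed, so these counts are not read as a trait of the tau and phi genes. GSTU8 was highest in replicate 1 in 11 of 12 groups and GSTU26 in 10 of 12.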
